A study of Saccharomyces cerevisiae with 12 samples.

Results

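The genes described here encode the proteins of the large subunit of the yeast ribosome, and the question was where, and how strongly, the ubiquitin-like protein SUMO was found at their promoters. The set was taken by name. It holds the genes of the R64 annotation called RPL plus a number and an optional A or B, without RPL3, RPL4A and RPL4B, which makes 73 of the 76 RPL genes among 6002 protein-coding nuclear genes. Of these, 64 form 32 pairs of A and B paralogs and 9 are single-copy genes. A gene was given the SUMO peak whose summit, the base with the highest enrichment, fell between 800 bp before and 100 bp after its start codon.

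SUMO (Smt3 in yeast) had been immunoprecipitated from crosslinked chromatin of haploid budding yeast grown in synthetic complete medium at 30 °C, and the bound DNA was sequenced. The groups were ubc9-6 untreated, a mutant with impaired activity of Ubc9, the enzyme that conjugates SUMO to its targets, W303a (WT) moved to 37 °C for 12 min (heat shock), and W303a untreated. Each group had 2 SUMO libraries with 1 peak list each, and 6 input libraries entered through the peak calling. The study describes the replicates as independent, and p-values of the permutation tests rest on 2 libraries a group. Those of limma, a linear model fitted over regions, rest on 1 variance shared by the regions. They do not measure the spread of a single region between 2 libraries.

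SUMO is attached to lysines of target proteins by the E2 enzyme Ubc9, and many of its targets in yeast are chromatin-bound proteins. Ribosomal protein promoters of yeast are built around Rap1, a sequence-specific DNA-binding protein that at these genes brings in Fhl1, Ifh1 and other cofactors. The genes are among the most strongly transcribed of a growing cell, are turned down together under stress, and hold a large part of the introns of this genome. None of the regulators RAP1, FHL1, IFH1, SFP1, HMO1, CRF1 and ABF1 had a peak at its own promoter in any of the 6 lists.

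The lists differed in length, and some went against their labels. They held 600 and 709 peaks for ubc9-6, 302 and 319 for heat shock and 714 and 842 for WT untreated. Among 34 heat-shock target genes, 13 and 15 had a promoter peak in the ubc9-6-labelled lists, 1 and 1 in the heat-shock-labelled lists, and 8 and 5 in the WT untreated lists. Over all protein-coding genes the shares with a promoter peak were 9.35% and 10.6%, 3.73% and 4.45%, and 11.9% and 12.9% in the same order. HSP104, HSP26, HSP78 and SSA4, which encode chaperones induced by heat, had peaks in both ubc9-6-labelled lists and in neither heat-shock-labelled list nor WT untreated. The groups are therefore called by their labels, as "ubc9-6-labelled lists" and "heat-shock-labelled lists", and every direction below rests on labels that the heat-shock genes go against. Whether the 4 lists of these groups carry each other's labels was not tested, and if they do, the names of both groups change places in every comparison below.

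The DNA under the summits is shown for 8 RPL genes of sacCer3 (R64), chosen because the results below turn on them. They are both members of the RPL22 pair (chrXII:262909-263009, plus strand, and chrVI:65124-65224, minus strand) and of the RPL35 pair (chrIV:117327-117427 and chrIV:217272-217372, plus strand), which differ most between paralogs, RPL2B (chrIX:316329-316429, plus strand) and RPL5 (chrXVI:302791-302891, plus strand), which had the highest and the lowest geometric mean of fold enrichment among the 68 genes called in both WT untreated lists, and RPL28 (chrVII:310657-310757, plus strand) and RPL20A (chrXIII:754537-754637, minus strand), the ends of the comparison between the ubc9-6-labelled lists and WT untreated. Each window is 101 bp, reads 5′ to 3′ on the strand of its gene and has the WT untreated summit at its centre. Capitals mark matches to the Rap1 core, ACACCC followed by 2 bases of any kind and ACA, with at most 1 mismatch on either strand.
RPL22A: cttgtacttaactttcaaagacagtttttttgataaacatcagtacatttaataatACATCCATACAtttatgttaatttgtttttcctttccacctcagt
RPL22B: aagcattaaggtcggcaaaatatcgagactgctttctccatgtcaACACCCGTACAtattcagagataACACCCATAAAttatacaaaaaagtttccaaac
RPL35A: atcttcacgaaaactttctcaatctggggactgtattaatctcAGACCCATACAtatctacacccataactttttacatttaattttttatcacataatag
RPL35B: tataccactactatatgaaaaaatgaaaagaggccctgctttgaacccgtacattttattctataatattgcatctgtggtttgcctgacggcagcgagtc
RPL2B: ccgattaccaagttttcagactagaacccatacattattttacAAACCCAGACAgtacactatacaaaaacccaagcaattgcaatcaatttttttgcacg
RPL5: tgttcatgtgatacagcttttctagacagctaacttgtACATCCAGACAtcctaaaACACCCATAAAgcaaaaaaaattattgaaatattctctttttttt
RPL28: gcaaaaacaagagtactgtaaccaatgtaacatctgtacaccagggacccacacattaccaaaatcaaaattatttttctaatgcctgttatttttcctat
RPL20A: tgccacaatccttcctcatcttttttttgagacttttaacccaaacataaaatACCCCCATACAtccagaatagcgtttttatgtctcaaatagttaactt
RPL22B and RPL5 held 2 matches each, RPL22A, RPL35A, RPL2B and RPL20A 1 each, and RPL35B and RPL28 none in this window.

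The first comparison asked how many RPL promoters carried SUMO in each group. A peak was found at 69 and 69 RPL genes in the ubc9-6-labelled lists, at 5 and 13 in the heat-shock-labelled lists, and at 69 and 69 in the WT untreated lists. Counting genes with a peak in both lists of a group gave 69 for the ubc9-6-labelled lists, 5 for the heat-shock-labelled lists and 68 for WT untreated. Over all protein-coding genes the same share was 8.96% in the ubc9-6-labelled lists, 3.70% in the heat-shock-labelled lists and 10.9% in the WT untreated lists. RPS genes encode the proteins of the small subunit. They had a peak in both ubc9-6-labelled lists at 50 of 56 genes, in both heat-shock-labelled lists at 1 and in both WT untreated lists at 53. The RPL count was the same in the ubc9-6-labelled lists and WT untreated, and was lower by 60 genes on average in the heat-shock-labelled lists than in WT untreated (exact permutation test over libraries, two-sided, p = 0.333, adjusted p = 0.533 over 8 comparisons). With 2 libraries against 2, 0.333 is the smallest p such a test can give.

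The members without a peak were few, and several of them depended on the window. RPL15B, RPL18B and RPL24A had no peak in any of the 6 lists. RPL1A, the paralog of RPL1B for the mobile L1 stalk protein, had a peak in WT untreated replicate 2 with a fold enrichment of 2.04 and a summit at −170 bp, and in no other list. RPL24A shares its upstream region with RPL30, and the summit there lay just outside its window, so it was counted for RPL30. A window of 900 bp, chosen after seeing the data, gave RPL24A a peak in both ubc9-6-labelled lists and in both WT untreated lists. RPL32 had its summit at −791 and −800 bp in the ubc9-6-labelled lists and at −787 bp in WT untreated replicate 1, and in replicate 2 the summit fell outside the 800 bp window, which is why it is missing there. Both windows left RPL15B and RPL18B without a peak, while RPL15A, the paralog of RPL15B, had peaks in all 4 ubc9-6-labelled and WT untreated lists.

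**Figure D1:**
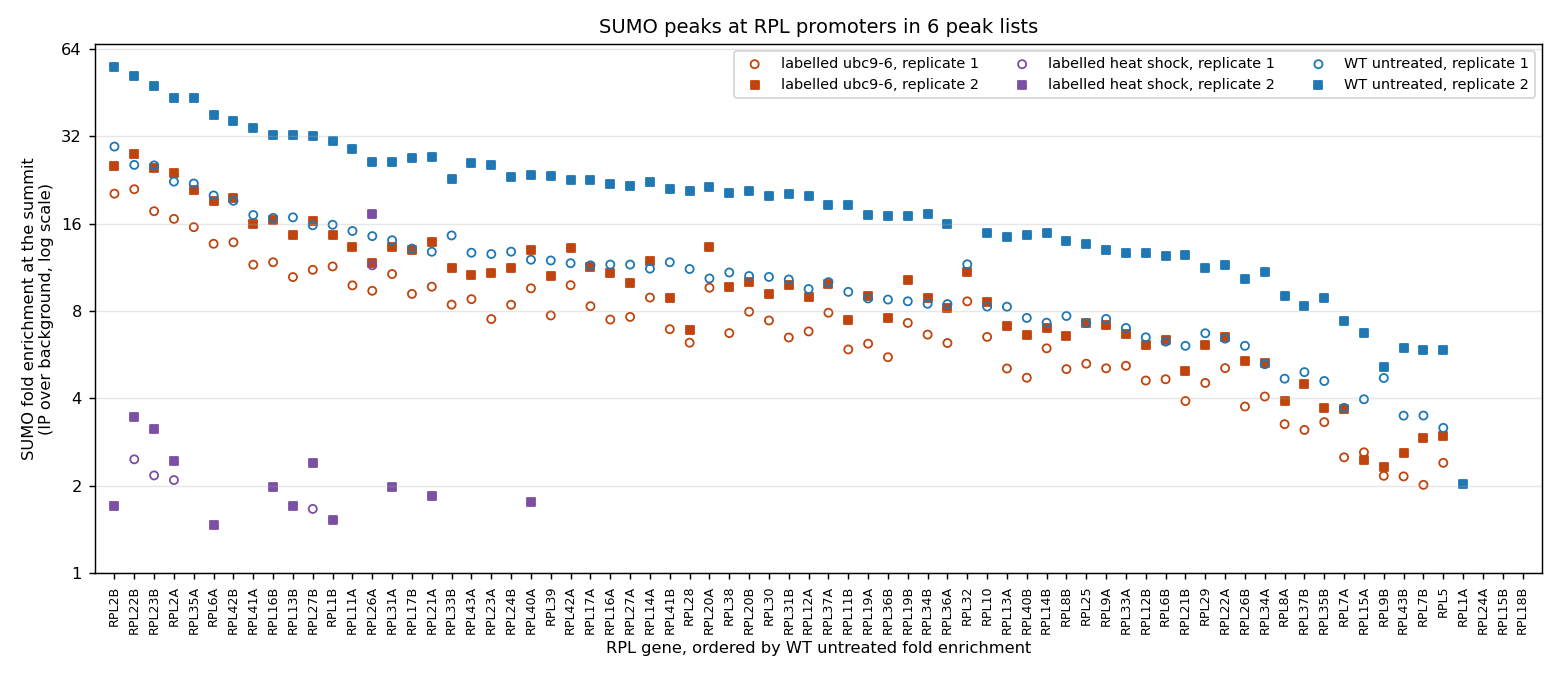
SUMO fold enrichment at the summit (log axis) of the peak at each of 72 RPL genes, with 1 point per peak list, coloured by group and shaped by replicate, and genes ordered by the geometric mean of the WT untreated lists. Missing points are genes without a peak in that list, and the heat-shock-labelled lists have points at 5 and 13 genes.

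Fold enrichment, the deposited ratio of fragments at the summit over the local background, spread 9.38-fold among RPL promoters in WT untreated, and the ubc9-6-labelled lists had nearly the same order. RPL2B, whose product uL2 lies next to the peptidyl transferase centre, had 20.3 and 25.3 in the ubc9-6-labelled lists, against 29.5 and 55.5 in WT untreated. RPL22B had 21.0 and 27.9 in the ubc9-6-labelled lists, against 25.5 and 51.6 in WT untreated. RPL23B, for a protein of the face that meets the small subunit, had 17.7 and 24.97 in the ubc9-6-labelled lists, against 25.4 and 47.7 in WT untreated. RPL2A, with 22.3 and 43.2 in WT untreated, and RPL35A, with 22.01 and 43.5, completed the highest 5. The same 5 genes were the highest in the ubc9-6-labelled lists, and 9 of the highest 10 were shared.

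At the other end, RPL5 encodes a protein that carries 5S rRNA into the subunit. It had 2.40 and 2.97 in the ubc9-6-labelled lists, against 3.17 and 5.88 in WT untreated. RPL7B had 2.02 and 2.92 in the ubc9-6-labelled lists, against 3.49 and 5.86 in WT untreated. RPL43B had 2.16 and 2.60 there, against 3.49 and 5.96 in WT untreated. These values were close to those of RPL5. RPL9B had 2.17 and 2.33 in the ubc9-6-labelled lists, against 4.71 and 5.14 in WT untreated, and RPL15A had 2.61 and 2.46 in the ubc9-6-labelled lists, against 3.98 and 6.72 in WT untreated. In each of these 5 genes both WT untreated values were above both values of the ubc9-6-labelled lists. Of the lowest 10 genes, 9 were shared between the groups. Across the 68 genes with a peak in all 4 lists, Spearman's rho of fold enrichment was 0.990 between the ubc9-6-labelled lists, 0.992 between the WT untreated lists and 0.962 to 0.976 between groups. These correlations are across genes that share a library and its background, and genes are not independent replicates.

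Taken as a set, RPL peaks ranked high in the ubc9-6-labelled and WT untreated lists. Their median fold enrichment was 6.93 and 9.65 in the ubc9-6-labelled lists, 2.17 and 1.98 at the 5 and 13 genes with a peak in the heat-shock-labelled lists, and 10.4 and 19.99 in WT untreated. Ranked by q-value within a list, from 0 for the weakest peak to 100 for the strongest, the median RPL peak stood at 85.4 and 87.9 in the ubc9-6-labelled lists, 12.4 and 10.5 in the heat-shock-labelled lists, and 82.6 and 90.2 in WT untreated. RPS peaks stood at 86.6 and 88.5 in the ubc9-6-labelled lists, 15.1 (1 peak) and 9.56 in the heat-shock-labelled lists, and 85.8 and 91.5 in WT untreated. The percentile of RPL peaks in the heat-shock-labelled lists was 74.9 below that of WT untreated (exact permutation test, two-sided, p = 0.333, adjusted p = 0.533). The median RPL summit rested on 899 and 1359 fragments in the ubc9-6-labelled lists, 248 and 229 in the heat-shock-labelled lists, and 1219 and 2501 in WT untreated, recovered from the deposited ratio and p-value, so that counting error alone was 2.0% to 6.6% at the median summit. It covers counting error only.

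Libraries of a group differed in scale. At the 68 RPL genes WT untreated replicate 2 was 1.92 times replicate 1 at the median, with a range of 1.09 to 2.11, and replicate 2 of the ubc9-6-labelled lists was 1.34 times replicate 1, with a range of 0.944 to 1.52. The median ratio of the ubc9-6-labelled list to WT untreated was 0.696 in replicate 1 and 0.489 in replicate 2, so the gap between the WT untreated libraries was larger than the first of these differences and smaller than the second.

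The position of the summit varied little between lists at most RPL genes. The median summit lay at −337 and −335 bp from the start codon in the ubc9-6-labelled lists, at −376 and −353 bp in the heat-shock-labelled lists, and at −336 and −334 bp in WT untreated, where negative values are upstream. The difference from WT untreated was −1 bp for the ubc9-6-labelled lists (exact permutation test, two-sided, p = 0.667, adjusted p = 0.889) and −29.5 bp for the heat-shock-labelled lists (p = 0.333, adjusted p = 0.533, exact permutation test), and the heat shock value rests on the few genes called there. Averaged over the WT untreated lists, 51 of 68 genes had their summit from 400 to 200 bp upstream. The WT untreated replicates placed the summit within 10 bp of each other at 51 of 68 genes, with a median gap of 3.5 bp. Between the groups the mean position moved by a median of 3.75 bp, and the 4 lists fell within 20 bp of each other at 57 genes.

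Some RPL genes had their summit far from the common place. RPL29, which encodes a small basic protein, had it at −605 and −618 bp in the ubc9-6-labelled lists and at −609 and −611 bp in WT untreated. The summits at RPL12A, RPL17B, RPL24B and RPL31B also averaged more than 500 bp upstream in WT untreated, and a window of 500 bp drops them. RPL9B had the summit closest to the start codon, at −71 and −71 bp in the ubc9-6-labelled lists and −108 and −78 bp in WT untreated. At 32 of the 70 RPL genes with a peak in WT untreated, the summit also lay in the window of a neighbouring gene, so the peak cannot be assigned to the RPL gene alone. In 3 cases the neighbour was a small-subunit gene, with RPS16B beside RPL13A, RPS16A beside RPL13B and RPS22A beside RPL39.

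Summits moved by more than 100 bp between the WT untreated lists at 2 genes, and both had broad peaks. The peak at RPL26A was 1119 and 1103 bp wide in WT untreated and that at RPL33B 1149 and 1754 bp, against medians of 739 and 817 bp over all RPL peaks in those lists. At RPL26A, which encodes a protein at the exit of the peptide tunnel, the summit was at −298 and −310 bp in the ubc9-6-labelled lists, −716 and −715 bp in the heat-shock-labelled lists, and −710 and −309 bp in WT untreated. The distal position is 7 to 13 bp from the tRNA gene TRR4, so in 3 of the 6 lists the RPL26A peak had its summit at a tRNA gene. At RPL33B the summit was at −488 and −469 bp in the ubc9-6-labelled lists and at −630 and −470 bp in WT untreated.

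**Figure D2:**
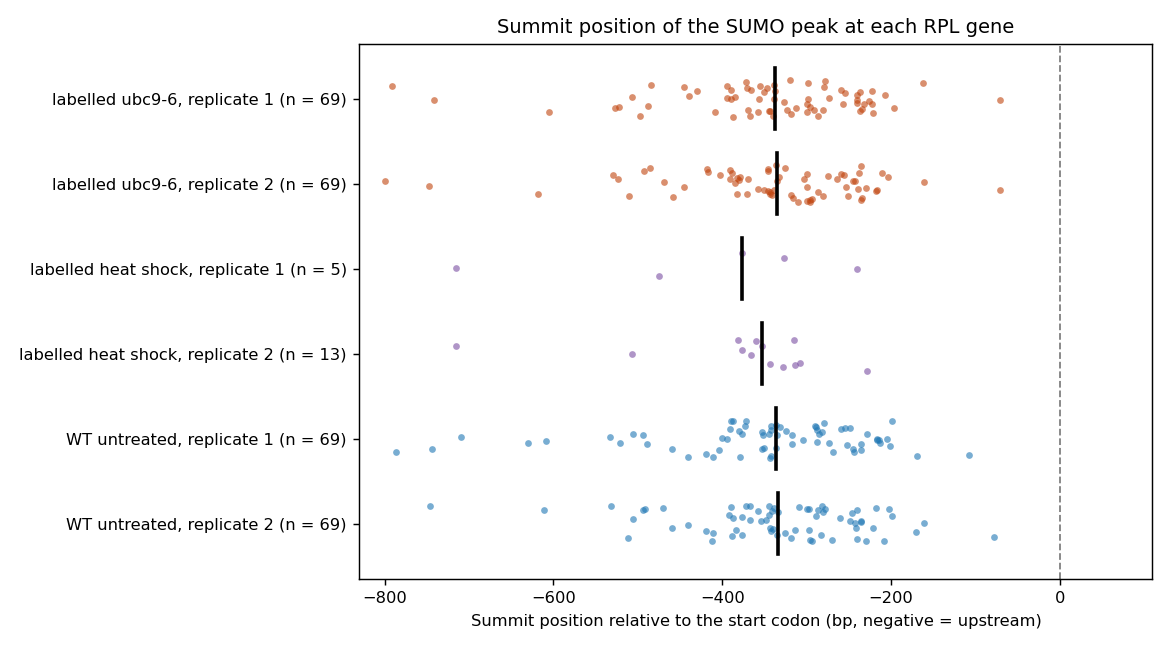
Position of the SUMO summit relative to the start codon (bp, negative is upstream) at each RPL gene with a peak, in 1 row per peak list with points spread vertically for visibility. Black bars are medians, from −337 to −334 bp in the ubc9-6-labelled lists and WT untreated.

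The paralog comparison asked whether A and B copies of the same protein carried the same amount of SUMO. Of 32 pairs, 28 had a peak at both copies in both WT untreated lists. In the other 4 pairs the copy that lacked a peak in at least 1 of these lists was RPL1A, RPL15B, RPL18B or RPL24A. The A copy was higher in both WT untreated lists in 15 pairs, the B copy in 12, and 1 pair was mixed. In the ubc9-6-labelled lists the A copy was higher in both lists in 16 pairs and the B copy in 12. The order was the same in all 4 lists in 25 of the 28 pairs.

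The copies of a pair often differed by more than the replicates did. The median difference was 0.68 on the log2 scale, or 1.60-fold, and 9 pairs were more than 2-fold apart, while the median gap between the WT untreated replicates for the same difference was 0.08 and the largest was 0.66. Between the ubc9-6-labelled lists and WT untreated the difference of a pair moved by a median of 0.12 and at most by 0.42. No test over pairs was made, since pairs are not replicates.

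RPL35 encodes uL29, which lies at the rim of the peptide exit tunnel, and had the largest difference of the 28 pairs. RPL35A had 15.6 and 20.9 in the ubc9-6-labelled lists and 22.01 and 43.5 in WT untreated, and RPL35B had 3.32 and 3.72 in the ubc9-6-labelled lists and 4.60 and 8.85 in WT untreated. The A copy was 4.85-fold above the B copy in WT untreated and 5.14-fold in the ubc9-6-labelled lists. The summits were 9 bp apart on average in WT untreated, at nearly the same distance from the start codon. With at most 1 mismatch, the sequence windows above show a Rap1 core match in RPL35A and none in RPL35B. The RPL35B window holds gaacccgtaca, which resembles the core and misses that limit. In RPL22 the order was the other way round. RPL22A had 5.09 and 6.53 in the ubc9-6-labelled lists and 6.43 and 11.6 in WT untreated, and was 4.21-fold below RPL22B in WT untreated. The RPL22B window holds 2 matches, 1 of them exact, and the RPL22A window holds 1 with a mismatch. Match counts did not follow peak height in the next 3 pairs, since RPL43A, RPL43B, RPL6A and RPL6B had no match within 50 bp of the summit, and RPL26A had 1 and RPL26B 2.

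The next 3 pairs were RPL43, RPL6 and RPL26, with the A copy higher in each. RPL43A, for a zinc-binding protein of the subunit, had 8.79 and 10.7 in the ubc9-6-labelled lists and 12.7 and 25.8 in WT untreated, which was 3.97-fold above RPL43B in WT untreated. RPL6A had 13.6 and 19.1 in the ubc9-6-labelled lists and 20.02 and 38.0 in WT untreated, and RPL6B had 4.66 and 6.37 in the ubc9-6-labelled lists and 6.28 and 12.4 in WT untreated, a difference of 3.13-fold in WT untreated. RPL26A exceeded RPL26B by 2.46-fold in WT untreated, with 14.5 and 26.1 against 6.07 and 10.3, of which the value of 14.5 was taken at the summit beside the tRNA gene. In all 5 of these pairs the higher copy was higher in each of the 4 ubc9-6-labelled and WT untreated lists.

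Summit positions differed between copies more than between replicates. The median difference in position over the 28 pairs was 91.2 bp, with 8 pairs within 50 bp and 13 more than 100 bp apart. RPL9 had the largest difference of these pairs, 222.5 bp, with RPL9A further upstream, and RPL9A was also 2.01-fold higher than RPL9B in WT untreated.

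**Figure D3:**
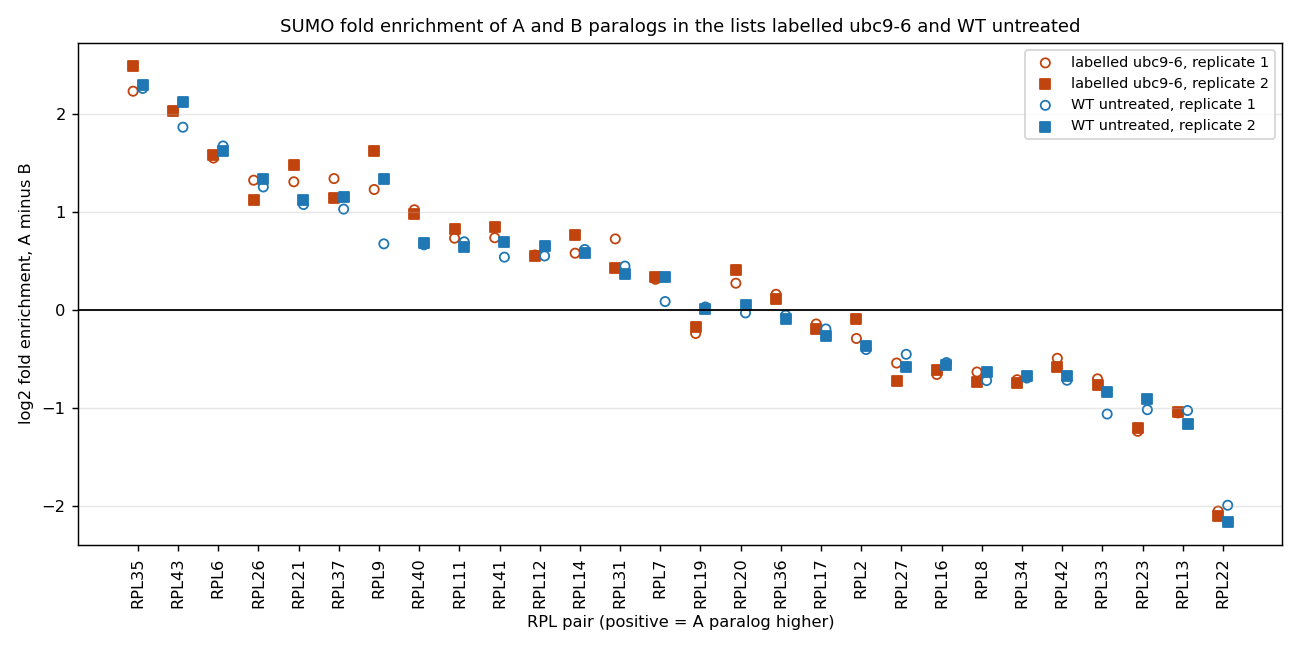
Difference in log2 fold enrichment between A and B copies (positive means A higher) for the 28 RPL pairs with both copies called, with 1 point per ubc9-6-labelled list (left of each position) and WT untreated (right), ordered by the WT untreated mean. RPL35 stands at the left end with 2.28 in WT untreated and RPL22 at the right end with −2.07.

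The 9 single-copy genes were spread through the middle and lower part of the range. Their median fold enrichment was 6.52 and 8.60 in the ubc9-6-labelled lists, against 10.5 and 17.4 in WT untreated, where A copies had 11.4 and 21.5 and B copies had 9.04 and 17.9. None of the 9 had a peak in a heat-shock-labelled list. RPL39, for a small protein of the exit tunnel, was the highest of the 8 with both WT untreated values, at 7.73 and 10.5 in the ubc9-6-labelled lists and 12.0 and 23.4 in WT untreated. RPL32 had 8.64 and 10.9 in the ubc9-6-labelled lists and 11.6 in WT untreated replicate 1.

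The remaining single-copy genes fell between RPL39 and RPL5. RPL30, whose product binds its own transcript, had 7.43 and 9.17 in the ubc9-6-labelled lists and 10.5 and 19.99 in WT untreated. RPL38 had 6.72 and 9.65 in the ubc9-6-labelled lists and 10.9 and 20.4 in WT untreated. RPL28, the gene in which cycloheximide resistance mutations arise, had 6.23 and 6.88 in the ubc9-6-labelled lists and 11.2 and 20.7 in WT untreated. These 3 genes had nearly the same values in WT untreated. RPL10, for a protein that joins the subunit late in the cytoplasm, had 6.52 and 8.60 in the ubc9-6-labelled lists and 8.29 and 14.9 in WT untreated. RPL25, for a tunnel-exit protein, had 5.27 and 7.30 in the ubc9-6-labelled lists and 7.27 and 13.6 in WT untreated. RPL29 had 4.52 and 6.10 in the ubc9-6-labelled lists and 6.71 and 11.2 in WT untreated, and these 3 genes lay below RPL30, RPL38 and RPL28 in both WT untreated lists.

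Groups by role in the subunit overlapped widely in WT untreated. The 12 exit tunnel genes had medians of 7.51 and 10.4 in the ubc9-6-labelled lists and 10.9 and 21.4 in WT untreated, close to the whole set. The 4 genes on the peptidyl transferase side, RPL2A, RPL2B, RPL10 and RPL28, had 11.6 and 16.2 in the ubc9-6-labelled lists and 16.8 and 31.9 in WT untreated. Those that bind 5S rRNA, RPL5, RPL11A and RPL11B, had 5.90 and 7.47 in the ubc9-6-labelled lists and 9.32 and 18.5 in WT untreated, with RPL5 lowest and RPL11A highest. RPL12A and RPL12B, of the stalk base, had medians of 8.02 and 16.3 in WT untreated, and RPL40A and RPL40B, which encode ubiquitin fused to a ribosomal protein, 9.80 and 19.1. Among genes with a peak in each WT untreated list, the 51 (of 52) with an intron in the coding sequence had a median of 10.6 and 20.7 and the 18 (of 21) without had 8.80 and 14.4, and of the 13 genes with a peak in a heat-shock-labelled list, RPL1B alone had no intron.

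The next comparison asked which RPL peaks of untreated WT cells were found in the other groups. The WT untreated lists shared 661 regions, of which 69 held an RPL peak (the 68 genes with a peak in both lists and RPL32). All 69 RPL regions had a peak in both ubc9-6-labelled lists, while 10.3% of the 661 regions had a peak in neither and 17.4% were not called in both. Retention was nearly as full in other classes. Both ubc9-6-labelled lists had a peak at 51 of 53 RPS regions. They also had one at 259 of 264 regions that held a tRNA gene and no ribosomal protein gene. In the heat-shock-labelled lists, 56 of 69 RPL regions (81.2%) had a peak in neither list, against 54.2% of all regions, and 64 were not called in both, against 60.4%. RPS regions behaved alike, with 42 of 53 in neither heat-shock-labelled list. Among WT untreated regions that held a tRNA gene and no ribosomal protein gene, 247 of 264 had a peak in both heat-shock-labelled lists. In these bulk samples fewer cells with SUMO at a promoter and less SUMO per cell cannot be told apart.

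The RPL peaks that were called in the heat-shock-labelled lists were weak and belonged to genes high in WT untreated. RPL22B had 2.47 and 3.45 in the heat-shock-labelled lists, against 25.5 and 51.6 in WT untreated. RPL23B had 2.17 and 3.14 in the heat-shock-labelled lists, against 25.4 and 47.7 in WT untreated. RPL2A had 2.09 and 2.43 in the heat-shock-labelled lists, against 22.3 and 43.2 in WT untreated, and RPL27B had 1.67 and 2.40 in the heat-shock-labelled lists, against 15.8 and 32.1 in WT untreated. In these 4 genes every value of the heat-shock-labelled lists was far below both WT untreated values. RPL26A, the fifth gene called in both lists, had 11.5 and 17.3 in the heat-shock-labelled lists, against 14.5 and 26.1 in WT untreated, with both heat shock summits beside the tRNA gene, so 4 genes remained when summits within 50 bp of a tRNA gene were left out, an alternative chosen after seeing the data.

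A further 8 genes had a peak in replicate 2 alone of the heat-shock-labelled lists. Fold enrichments were 1.53 at RPL1B, 1.70 at RPL2B, 1.47 at RPL6A, 1.71 at RPL13B, 1.98 at RPL16B, 1.85 at RPL21A, 1.98 at RPL31A and 1.76 at RPL40A. Of the 13 genes, 7 were among the highest 10 of the 68 genes ranked by WT untreated fold enrichment and 12 among the highest 20, and the lowest, RPL40A, ranked 22. RPL35A, which ranked 5, was called in neither heat-shock-labelled list. Apart from RPL26A, the ranks of these peaks ran from 236 to 291 of 302 peaks in replicate 1 and from 236 to 311 of 319 in replicate 2. Summits lay near those of WT untreated at RPL22B, RPL23B and RPL27B, and RPL2B lay apart. RPL22B had its summit at −240 and −228 bp in the heat-shock-labelled lists and at −235 and −242 bp in WT untreated, and RPL23B at −376 and −377 bp in the heat-shock-labelled lists and at −377 and −377 bp in WT untreated. RPL27B had it at −327 and −328 bp in the heat-shock-labelled lists and at −336 and −326 bp in WT untreated. RPL2B had it at −314 bp in replicate 2 of the heat-shock-labelled lists, against −391 and −389 bp in WT untreated. The RPL2 pair was called at both copies in that heat-shock-labelled list, where RPL2A was 0.52 above RPL2B on the log2 scale. RPL2B was higher in all 4 ubc9-6-labelled and WT untreated lists.

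The last comparison between groups asked whether SUMO at RPL promoters was lower in the ubc9-6-labelled lists than in WT untreated. Fold enrichment was lower in the ubc9-6-labelled list than in WT untreated within replicate 1 and within replicate 2 at all 69 RPL regions. This was also so at 94.9% of the 546 regions called in all 4 lists. The median log2 fold change of the RPL regions was −0.78, with a range from −1.22 to −0.40 (SE 0.35, n = 2 libraries each). It was −0.78 for RPS regions and −0.77 over all 546. By limma on log2 fold enrichment with Benjamini-Hochberg adjustment over all regions, 33 of 69 RPL regions were lower at an adjusted p below 0.05 and 0 were higher, against 46.0% of all regions lower and 0.183% higher. At an unadjusted p below 0.05, 55 RPL regions were lower, against 70.1% of all regions. Both ubc9-6-labelled libraries were below both WT untreated libraries at 52 RPL regions, against 82.6% of all regions, and above both at 0, against 0.916%. The share of RPL regions called at the adjusted p was near that of all regions. The SE was the same at every RPL region, because limma used 1 variance shared by the regions. All regions come from the same 4 libraries, so these p-values do not measure the spread of each region between 2 libraries.

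The calls depended on the scale of the libraries. After each library was centred on the median of the 546 regions, which moved the median of all regions to 0.012, the RPL median was 0.0018 on the log2 scale, 34 of 69 RPL regions were below 0 and limma called 0 of them in either direction (1 lower and 0 higher at an unadjusted p below 0.05). Both ubc9-6-labelled libraries were then below both WT untreated libraries at 4 RPL regions, against 18.7% of all regions, and above both at 1, against 26.2%. Leaving out a library gave 0 lower RPL regions without ubc9-6 replicate 1 (median log2 fold change −0.56), 0 without ubc9-6 replicate 2 (−0.99), 69 without WT untreated replicate 1 (−1.25) and 1 without WT untreated replicate 2 (−0.31), where a lone library was assumed to vary like the other group.

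RPL28 had the lowest log2 fold change of the 69 RPL regions, −1.22 (adjusted p = 0.0298, limma), from the values given above, and its peak spanned 1258 and 1318 bp in the ubc9-6-labelled lists and 790 and 1831 bp in WT untreated. Among the next were RPL9B with −1.13 (adjusted p = 0.0302), RPL15A with −1.03 (adjusted p = 0.0397) and RPL41B with −1.01 (adjusted p = 0.0416, all limma). RPL41B, for the shortest protein of the ribosome, had 6.93 and 8.88 in the ubc9-6-labelled lists, against 11.8 and 21.0 in WT untreated. In these 4 genes both ubc9-6-labelled libraries were below both WT untreated libraries. The smallest differences were at RPL20A, with −0.40 (adjusted p = 0.288), RPL19B, with −0.49 (adjusted p = 0.183), RPL42A, with −0.52 (adjusted p = 0.163), RPL10, with −0.57 (adjusted p = 0.126), and RPL22A, with −0.58 (adjusted p = 0.118, all limma). RPL20A had 9.63 and 13.3 in the ubc9-6-labelled lists, against 10.4 and 21.4 in WT untreated, so that the groups overlapped. Centring moved the log2 fold change of every region by the same amount, so the order of the genes stayed the same. The last 5 genes then lay above 0 and the first 4 below it, which follows from their places at the ends of that order. After centring and without a replicate block, limma called none of these 9.

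**Figure D4:**
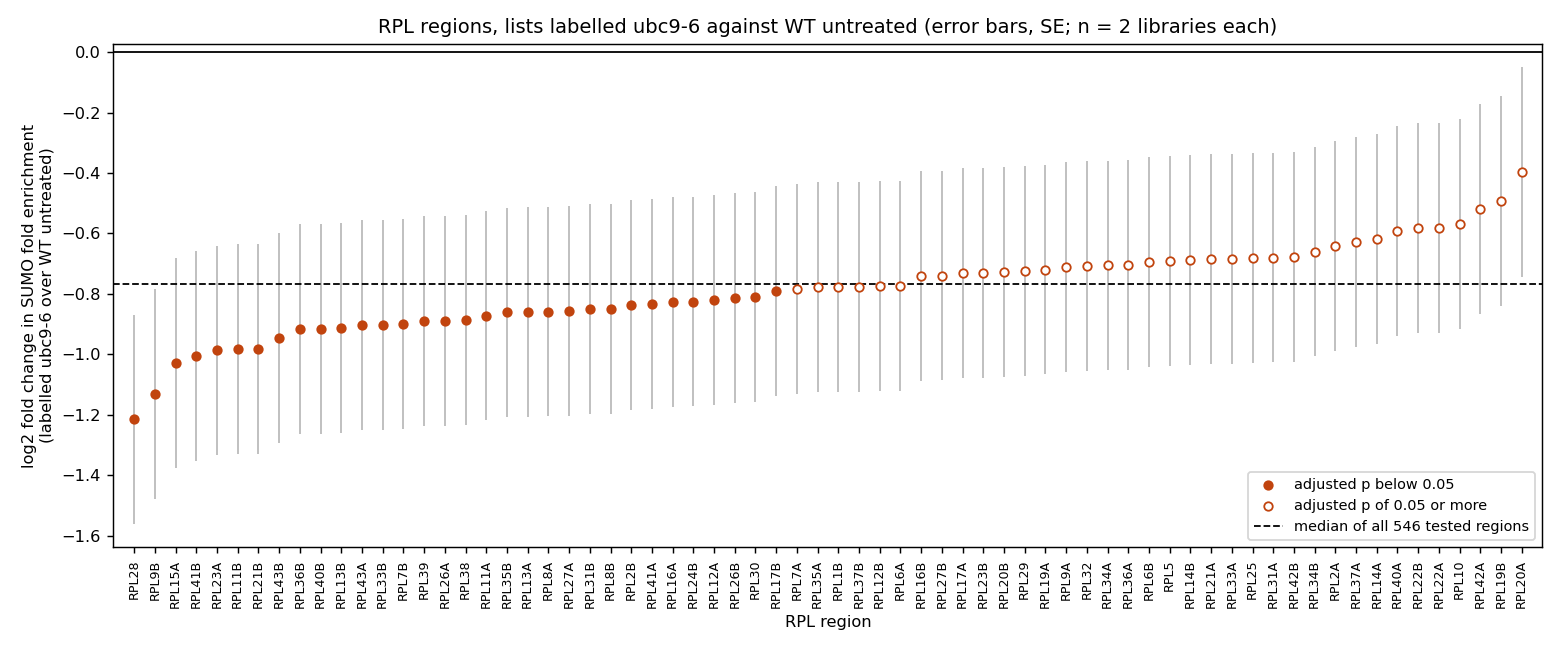
Log2 fold change in SUMO fold enrichment, ubc9-6-labelled lists over WT untreated, for 68 RPL regions ordered from RPL28 (−1.22) to RPL20A (−0.40), with bars of 1 SE and n = 2 libraries each. The SE is shared by all regions. Filled points pass an adjusted p of 0.05, and the dashed line is the median of all 546 tested regions (−0.77), which runs through the RPL points.

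Under the WT untreated summits the RPL promoters shared a sequence that the choice of genes did not use. A match to the Rap1 core with at most 1 mismatch, on either strand, lay within 50 bp of the summit in 49 of 69 RPL regions (71.0%). The same window held a match in 66.0% of the 50 RPS regions without an RPL peak, in 4.80% of the 542 other WT untreated regions, in 16.3% of all 661 regions, and in 2.02% of 5928 other protein-coding genes when placed at the median RPL distance upstream. Of the 542 other regions, 264 held a tRNA gene, so they are not all promoters of protein-coding genes. With no mismatch the core was found in 13 RPL regions (18.8%) and in 1.85% of the other regions. Among the 51 RPL genes with a match within 150 bp, the middle of the match was a median of 9 bp from the summit.

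Within 50 bp of the summit, other promoter motifs were not more frequent at RPL genes than at the other WT untreated regions. Of these other regions, 264 of 542 held a tRNA gene, and the shares were not split by that. The Fhl1 core GACGC was within 50 bp of 2.90% of RPL summits, against 8.67% of other WT untreated regions, and within 150 bp of 29.0% of RPL summits, against 42.0% of RPS summits, 17.3% of other regions and 21.1% of other genes, so its direction against other regions turned with the window. TATAAA was found at 7.25% of RPL summits, against 28.0% of RPS and 17.7% of other summits. The Abf1 core, TCA and ACG with 6 bases of any kind between them, was found at 2.90%, against 4.06% of other summits, and the Reb1 core TTACCCG at 0 of 69 RPL summits, against 1.29%. All were searched on both strands, the last 4 with no mismatch, and a Rap1 match can overlap a Reb1 match because both hold ACCC. A match is a string of letters and not a bound site.

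Genes with and without a match overlapped widely in peak height, which is given as a description with no test. The 20 genes with no match within 50 bp of the summit had a median WT untreated fold enrichment of 12.4 (range 4.52 to 27.6), the 40 with 1 match 14.8 (range 5.24 to 40.5) and the 8 with 2 or more 14.1 (range 4.32 to 36.3). RPL6A, at 27.6, and RPL1B, at 22.1, had no match, and RPL5, with the lowest geometric mean of these 68 genes, had 2. Over the whole window from 800 bp upstream to 100 bp downstream, 76.7% of RPL genes and 16.01% of all protein-coding genes had a match. Of the genes without a peak in both WT untreated lists, RPL1A, RPL15B and RPL18B had none in that window, RPL24A had 1 at −481 bp and RPL32 had 1 exact match at −783 bp.

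**Figure D5:**
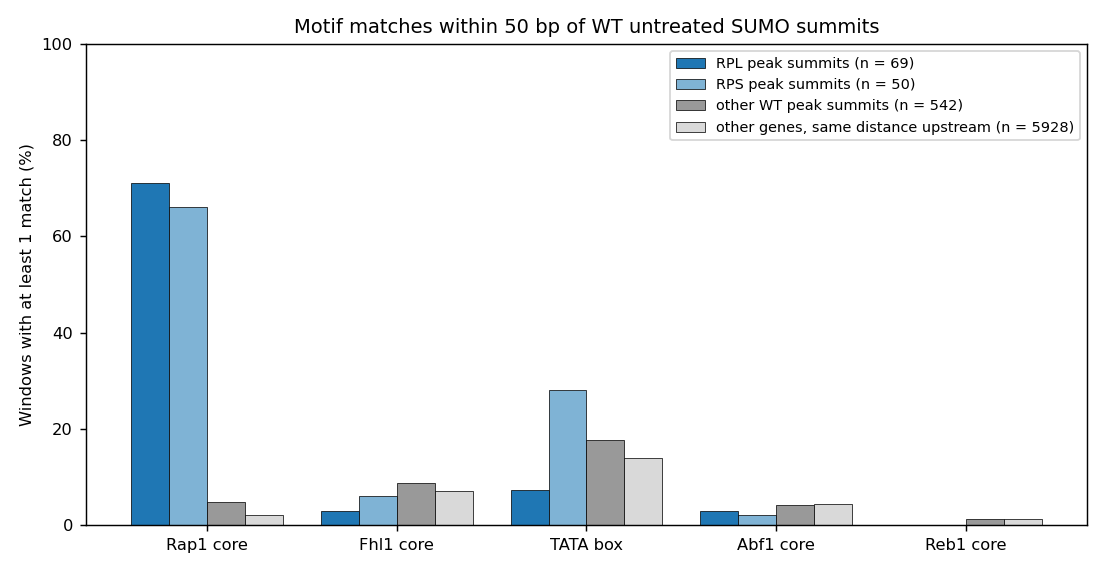
Share of windows (%) with at least 1 motif match within 50 bp of the WT untreated summit, for RPL regions (n = 69), RPS regions (n = 50), other regions (n = 542) and windows at the median RPL distance upstream of other genes (n = 5928). The Rap1 core, searched with at most 1 mismatch, is found at 71.0% of RPL summits and 4.80% of other summits. Of the 542 other regions, 264 hold a tRNA gene.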

How the data were processed

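For each SUMO library on its own, the authors called narrow peaks against the matching input with MACS2 2.1.1.20160309 (q-value limit, 0.05), after Bowtie2 2.3.5 had placed the paired reads on sacCer3. DiffBind 2.10.0 is named in the submitters' processing notes, and its output was not used here. The treatment of reads that match more than 1 place is not given in the sources used here, so near-identical RPL paralogs may share reads. The deposited lists give, for each peak, a linear ratio (fold enrichment at the summit), the −log10 p-value and −log10 q-value that the authors' peak caller gave each peak, and the summit offset. Deposited values exist for called peaks alone, so a gene without a peak has no value.

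Start codons came from the RefSeq annotation of R64. Where several peaks fell in a window, the one with the best q-value was used. WT untreated regions are overlapping peaks (1 bp or more) of both WT untreated lists, merged. Fold enrichment was compared with limma 3.58.1 in R 4.3.3 on log2 values with no pseudocount, over the 546 regions called in all 4 lists, since a ratio is not a count. For the heat-shock-labelled lists no fit was made, because most members have no value. Counts, medians and positions were compared over libraries by exact permutation tests (scipy 1.17.1). Fragments at the summit were recovered from fold enrichment and p-value, and 3451 of 3486 peaks came out whole within 0.05. The peak assignment, region overlap, fragment recovery, motif search and limma fit were tested on simulated data. Genes named with values were the 5 highest and 5 lowest in WT untreated, those without a peak in a WT untreated list or with one in a heat-shock-labelled list, the 5 pairs furthest apart, the single-copy genes and the 5 lowest and 5 highest log2 fold changes. A gene that this rule names is not reported here by name and is left out of the plots of single genes. Others named were chosen after their values were seen. The members and lists were chosen with earlier results of these data known.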

Additional observations from a re-analysis of the deposited data

Results flagged for a closer look

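The order of A and B copies was opposite in the ubc9-6-labelled lists and WT untreated, in every library of each group, for 2 of the 28 RPL pairs. RPL19A minus RPL19B was −0.21 on the log2 scale in the ubc9-6-labelled lists (−0.24 and −0.17) and 0.020 in WT untreated (0.03 and 0.01). RPL36A minus RPL36B was 0.14 in the ubc9-6-labelled lists (0.16 and 0.12) and −0.073 in WT untreated (−0.05 and −0.09). The difference between groups was not tested for either pair, and the WT untreated values were within or near the median gap of 0.08 between replicates. With 2 libraries a group, libraries were not checked for outlying values.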

How the results depend on the processing

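Over 216 combinations of a result and another setting, the ones named here are each main value that moved and each sign that turned. The cause was not tested. A count moved at a ratio above 1.5 or a change to or from 0. Positions and percentiles moved beyond the SD between replicates, and the median log2 fold change at 1 SE or more. Below that ratio, RPL genes called in both WT untreated lists fell from 68 to 61 (500 bp upstream to 200 bp downstream) and 52 (302 peaks a list). In both ubc9-6-labelled lists they fell from 69 to 63 and 57. Of the single genes, 28 values lost a call and 10 gained it. The 2 libraries a group and the doubt over 4 of the 6 labels limit every comparison, and values exist for called peaks alone. With a window of 500 bp upstream to 200 bp downstream, RPL genes called in both heat-shock-labelled lists numbered 3, and the median summit was −319 bp (ubc9-6), −347.2 bp (heat shock) and −320.2 bp (WT untreated). At a fold enrichment of 2 or more the heat shock median was −401.2 bp. Leaving out a heat-shock-labelled replicate gave 5 to 13 genes. Keeping 302 peaks a list left 12 RPL regions in neither, and 12 not in both, ubc9-6-labelled lists, and median percentiles of 77.3 (ubc9-6), 9.44 (heat shock) and 74.5 (WT untreated). Ranking by fold enrichment gave 16.2 for heat shock. With an overlap of 50% of both intervals, 1 RPL region was not in both ubc9-6-labelled lists. With no mismatch, 13 summits held a Rap1 core. Lower RPL regions numbered 0 after centring, 0 on fragments over background (smallest adjusted p 0.0520, median −0.77, 69 of 69 below 0), and 0 to 69 without a library, with medians of −1.25 to −0.31. After centring, with or without the block, the median was 0.0018 and RPL20A 0.38, RPL19B 0.28, RPL42A 0.26, RPL10 0.21 and RPL22A 0.20, and without 1 library RPL20A ran from −0.92 to 0.13. The replicate numbers are shared by groups, but nothing says that they pair libraries. With the replicate number as a block, 69 RPL regions were lower (482 of all 546), and with block and centring, chosen after seeing the data, RPL28 was lower (adjusted p = 0.0145 by limma, 17 of all 546 lower) and RPL20A higher (adjusted p = 0.0367). Deviations of same-numbered libraries correlated with r = 0.44 over the 546 regions.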
